A study of Mus musculus with 21 samples.

Results

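The 7 genes described here write, copy or erase methyl groups on DNA, and their rows were taken by symbol from a deposited count table of 23337 genes measured in mouse B cells. They are Uhrf1 and Dnmt1 (maintenance), Dnmt3a and Dnmt3b (new methylation) and Tet1, Tet2 and Tet3 (removal), and all 7 symbols were in the table. The study set out to examine gut B cells that react to self, and sequenced RNA of B cells sorted from Peyer's patches (PP, the lymphoid nodules of the small intestinal lining), mesenteric lymph nodes (mLN) and Spleen. The labels name 3 kinds of B cells and expand neither HEL nor BCL2. BCL2 HEL pos cells have 3 libraries per tissue (922, 926 and 950), HEL pos cells have 3 per tissue (392, 399 and a pool), and HEL neg cells have 1 pooled library per tissue. All 21 libraries come from C57BL/6 mice aged 8 to 12 weeks, and the cells went straight from the sorter into TRIzol. The labels give neither the receptor transgenes nor the promoter behind the BCL2 label, and they do not say whether a numbered library is a single mouse.

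DNA methylation in mammals sits mostly on cytosines of CpG pairs and has to be copied each time a cell replicates its DNA. UHRF1 binds the half-methylated sites left behind the replication fork and brings in DNMT1, which methylates the new strand. DNMT3A and DNMT3B place methyl groups on sites that had none, whereas the TET enzymes oxidise methylcytosine, which leads to its removal. In mouse B cells, DNMT1 is needed for the expansion of germinal centre cells, and TET2 with TET3 restrains the activation of self-reactive cells.

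Library totals lay between 5475131 and 11340876 counts, with 12747 to 18206 genes detected per library. Levels are given in CPM (counts scaled to library totals adjusted by TMM), and 3 counts, the floor used here, came to 0.259 to 0.507 CPM. Because the sources do not say that libraries came from separate mice, each p-value is set by library-to-library spread alone, and that spread may be technical. Summed B cell markers (7 genes, among them Cd79a and Ms4a1) reached 24460 to 42660 CPM in all 21 libraries, and Bcl2 ran from 134 to 181 CPM in BCL2 HEL pos cells, against 48.6 to 100 CPM in HEL pos cells and 93.1 to 101 CPM in HEL neg cells. Summed T cell markers (8 genes) stayed at or under 57.3 CPM. The summed transcripts of 4 Y-linked genes were 95.8 to 164 CPM in the BCL2 HEL pos libraries, 0 to 0.844 CPM in the HEL pos libraries 392 and 399, 136 to 146 CPM in the HEL pos pools and 106 to 153 CPM in the HEL neg pools. BCL2 HEL pos and numbered HEL pos libraries thus differ in Y-linked transcripts as well as in the BCL2 label, and for the 7 genes the comparison is given below also against the HEL pos pools alone. Epithelial markers (13 genes) summed to 42.1 to 187 CPM in PP BCL2 HEL pos cells, 254 to 1078 CPM in PP HEL pos cells and 1192 CPM in PP HEL neg cells, and in Spleen and mLN libraries they stayed at or under 71.9 CPM.

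Uhrf1 lies on chromosome 17 (56303321 to 56323486, plus strand) and Dnmt1 on chromosome 9 (20907209 to 20959888, minus strand) of GRCm38 (mm10). Both are known targets of the E2F factors, which switch on genes of the replication phase. The promoter windows that hold an E2F-type motif are shown because the link of Uhrf1 and Dnmt1 with proliferation is examined below. Each window runs from 250 bases before to 50 bases after a transcription start in RefSeq (GRCm38.p6), 5′ to 3′ on the strand of the gene. Capitals mark TTTCGCGC or TTTGGCGC, searched on both strands, and a match on the opposite strand appears as its reverse complement.
Uhrf1, chr17:56304063-56304362, plus strand: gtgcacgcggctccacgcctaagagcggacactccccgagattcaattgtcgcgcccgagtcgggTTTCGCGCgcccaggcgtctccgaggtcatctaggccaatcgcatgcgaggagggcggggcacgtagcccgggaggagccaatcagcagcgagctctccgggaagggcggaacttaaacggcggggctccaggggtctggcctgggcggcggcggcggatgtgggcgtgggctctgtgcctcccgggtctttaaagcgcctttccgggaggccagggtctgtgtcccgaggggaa
Dnmt1, chr9:20952574-20952873, minus strand: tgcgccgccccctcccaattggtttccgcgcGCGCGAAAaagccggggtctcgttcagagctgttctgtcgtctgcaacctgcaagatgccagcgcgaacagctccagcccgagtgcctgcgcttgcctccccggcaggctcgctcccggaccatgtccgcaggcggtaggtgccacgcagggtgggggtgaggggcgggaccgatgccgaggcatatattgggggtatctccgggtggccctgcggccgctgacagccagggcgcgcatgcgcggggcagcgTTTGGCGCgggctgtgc
The Uhrf1 window holds 1 match and the Dnmt1 window holds 2. Of all 32851 such windows in the mouse genome 267, or 0.813%, hold at least 1 match. RefSeq gives 12 windows for the 7 genes, and the other 10 hold none of these letters, among them a further start of Uhrf1 and both further starts of Dnmt1. Each printed window has 33 CpG pairs, at percentile 91.4 of all windows, whose median is 7. The CpG count was 46 and 47 in a pair of the Dnmt3a windows and 57 in the Tet2 window, against 17 in the Tet1 window.

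Set against the merged length of all annotated exons, Uhrf1 and Dnmt1 were the most abundant of the 7 in Spleen HEL pos cells and Tet1 the least. That length can exceed a single transcript and ran from 4259 bases for Uhrf1 to 16870 for Tet2, so the ranking depends on it. In CPM alone Dnmt1 averaged 72.5, Uhrf1 55.8, Dnmt3a 43.0, Tet3 40.5, Tet2 35.4, Tet1 11.7 and Dnmt3b 9.90 in those cells. Uhrf1 averaged there 13.1 ± 2.53 CPM per kb of exon and Dnmt1 9.83 ± 0.532 CPM per kb (SD, n = 3 each). Dnmt3a at 2.58 ± 0.435, Tet3 at 2.43 ± 0.450, Tet2 at 2.10 ± 0.402 and Dnmt3b at 1.94 ± 0.381 CPM per kb lay within their spread of each other, and Tet1 averaged 0.756 ± 0.0676 CPM per kb (SD, n = 3 each). In Spleen BCL2 HEL pos cells, by contrast, Uhrf1 averaged 2.19 ± 0.315 CPM per kb, below Dnmt1 at 12.2 ± 0.892 and Tet3 at 3.08 ± 0.181 CPM per kb (SD, n = 3 each). Over the 21 libraries the level of Uhrf1 moved most among the 6 genes above the floor throughout, from 7.87 CPM in a Spleen BCL2 HEL pos library to 118 CPM in the PP HEL neg pool. The ratio of the highest to the lowest library was 15.0 for Uhrf1, 3.90 for Dnmt3b, 3.64 for Dnmt3a, 3.46 for Dnmt1, 2.26 for Tet2 and 2.25 for Tet3. Tet1 had counts from 0 to 93 per library, and 17 of 21 libraries were above the floor.

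**Figure D1:**
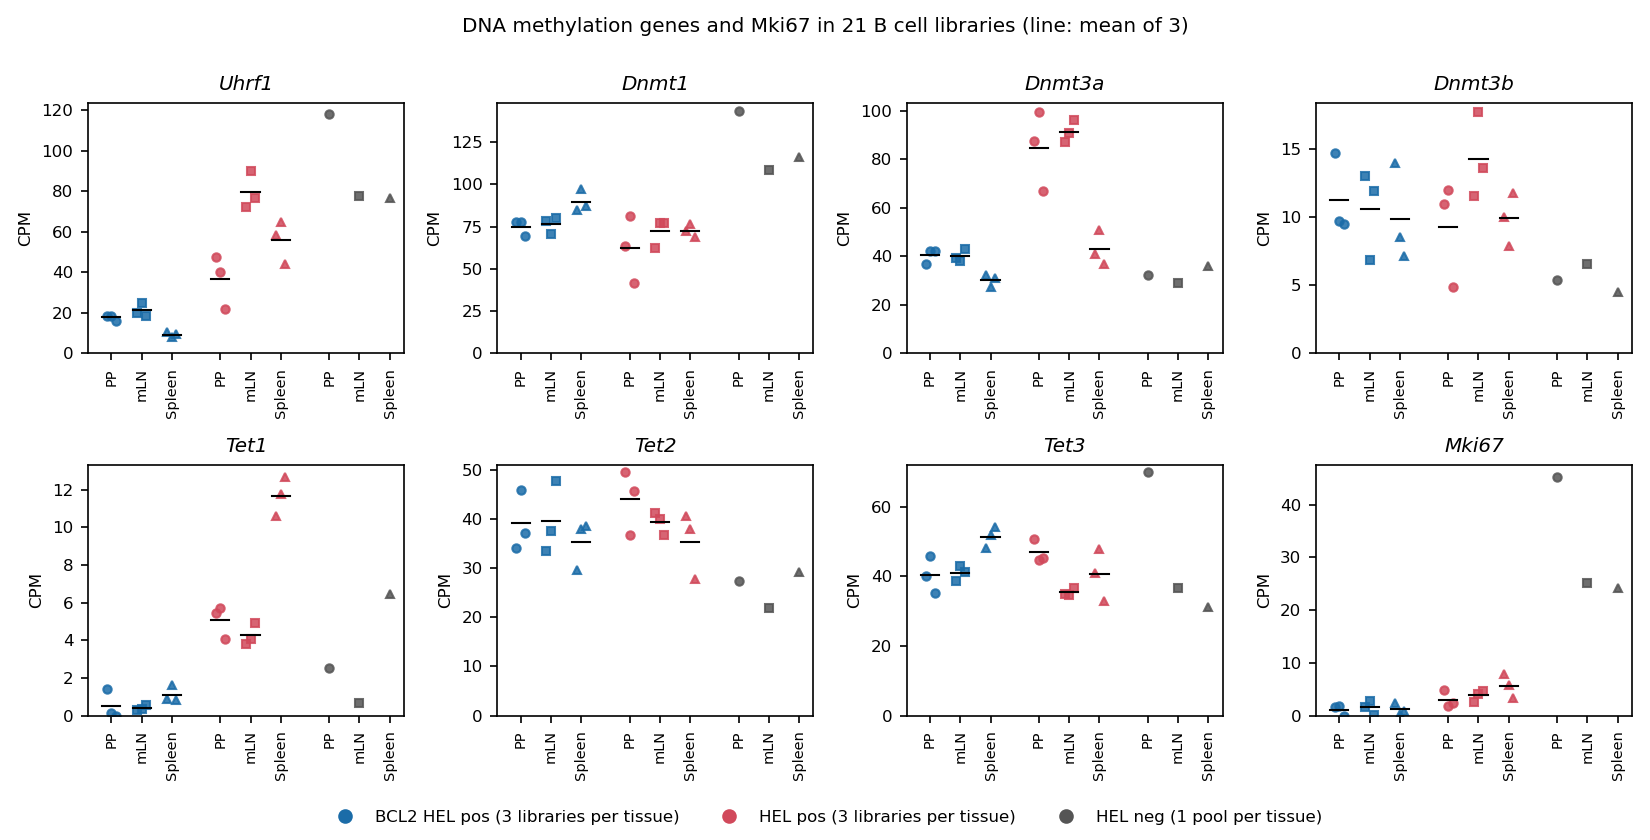
Level in CPM (y axis, linear, from 0) of the 7 genes and of the proliferation marker Mki67 in each of the 21 libraries, by tissue on the x axis within BCL2 HEL pos (blue), HEL pos (red) and HEL neg cells (grey), with a line at the mean of 3 libraries. Uhrf1 is lowest in Spleen BCL2 HEL pos cells (7.87 to 10.5 CPM) and highest in the PP HEL neg pool (118 CPM), while Dnmt1 stays between 41.4 and 97.3 CPM outside the HEL neg pools.

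BCL2 HEL pos cells were first compared with HEL pos cells of the same tissue. In all 3 tissues Uhrf1 and Dnmt3a were lower in BCL2 HEL pos cells, whereas Dnmt1, Dnmt3b, Tet2 and Tet3 did not pass the test in any. Tet1, close to the floor in BCL2 HEL pos cells, is described by its levels. Uhrf1, which guides DNMT1 to newly copied DNA, was lower by 2.57 on the log2 scale in Spleen, and the sizes in mLN and PP follow below. In Spleen, mLN and PP 2 of the 6 genes other than Tet1 were called at an adjusted p under 0.05, both lower, where 9.37%, 11.7% and 10.1% of all 11419 genes tested were called in either direction and 4.82%, 5.9% and 4.74% were called lower. A gene called lower in all 3 tissues is rarer, at 110 genes or 0.963% of those tested. For Dnmt3a that rests on a Spleen call (adjusted p = 0.0469 by edgeR) that was lost in 14 of 18 refits without 1 library. The median log2 fold change of the 7, Tet1 included, was 0.01 in Spleen, -0.43 in mLN and -0.25 in PP, against 0.00 to -0.01 over all genes tested.

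Uhrf1 in Spleen stood at 10.5, 7.87 and 9.54 CPM in the BCL2 HEL pos libraries 922, 926 and 950, against 64.9, 43.9 and 58.5 CPM in the HEL pos libraries 392, 399 and Pool. In mLN it stood at 20.0, 25.03 and 18.6 CPM in BCL2 HEL pos cells, against 89.9, 76.6 and 72.1 CPM in HEL pos cells. In PP it stood at 18.6, 18.5 and 16.2 CPM in BCL2 HEL pos cells, against 40.1, 21.9 and 47.7 CPM in HEL pos cells. In each tissue every BCL2 HEL pos library was below every HEL pos library, a separation that 30.8% of all genes tested showed in Spleen, 36.4% in mLN and 23.1% in PP. The narrowest gap was in PP, where the HEL pos library 399 came close to the BCL2 HEL pos libraries. Log2 fold changes were -2.57 ± 0.24 in Spleen (adjusted p = 8.24e-07), -1.90 ± 0.22 in mLN (adjusted p = 1.90e-05) and -1.08 ± 0.22 in PP (adjusted p = 0.00444), each with its SE, by edgeR's quasi-likelihood test with Benjamini-Hochberg adjustment over all genes. Ranked by p, Uhrf1 was number 7 of 11419 genes in Spleen and number 19 in mLN. Against the HEL pos pools alone, which match in Y-linked transcripts, the changes were -2.63, -1.75 and -1.45. In PP the call was lost when only the 6 libraries compared were fitted (adjusted p = 0.0604), at a change of -1.08.

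Dnmt3a, an enzyme of new methylation, stood in Spleen at 32.3, 27.4 and 31.0 CPM in BCL2 HEL pos cells, against 51.0, 36.8 and 41.1 CPM in HEL pos cells. In mLN it stood at 39.6, 38.2 and 43.1 CPM in BCL2 HEL pos cells, against 91.0, 96.3 and 87.0 CPM in HEL pos cells. In PP it stood at 36.9, 42.3 and 42.4 CPM in BCL2 HEL pos cells, against 99.8, 67.0 and 87.6 CPM in HEL pos cells. The groups did not overlap in any tissue, and the gap was narrowest in Spleen. The log2 fold changes were -1.18 ± 0.15 in mLN (adjusted p = 4.32e-05) and -1.10 ± 0.15 in PP (adjusted p = 0.000127), and -0.49 ± 0.15 in Spleen (adjusted p = 0.0469), by edgeR. Of these, the Spleen call was lost in 14 of 18 refits without 1 library (adjusted p up to 0.181), and it held only without the PP HEL pos libraries 392, 399 or Pool or the Spleen HEL pos library 399. It was also lost without a low-count filter (adjusted p = 0.0966), with only the libraries compared (adjusted p = 0.0831), without the pools (adjusted p = 0.0620) and against the HEL pos pool alone (-0.42, adjusted p = 0.263), whereas the mLN and PP changes were -1.10 and -1.13 there, both called.

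Tet1, the TET enzyme best known from embryonic stem cells and the germ line, was near the floor in BCL2 HEL pos cells. In Spleen it stood at 0.866, 1.62 and 0.806 CPM in BCL2 HEL pos cells, against 11.8, 12.7 and 10.6 CPM in HEL pos cells. In mLN it stood at 0.280, 0.363 and 0.560 CPM in BCL2 HEL pos cells, against 4.08, 4.93 and 3.77 CPM in HEL pos cells. In PP it stood at 1.40, 0.136 and 0 CPM in BCL2 HEL pos cells, against 5.69, 4.05 and 5.42 CPM in HEL pos cells. Every HEL pos library was above every BCL2 HEL pos library of its tissue, and the BCL2 HEL pos values rest on 0 to 14 counts per library. Tet1 passed the filter on low counts through the HEL pos libraries, of which 9 of 9 reached the minimum of 1.33 CPM, against 2 of 9 BCL2 HEL pos libraries. A gene tested on those terms had to differ, so its fitted log2 fold changes of -3.36 ± 0.64 in Spleen, -3.36 ± 0.72 in mLN and -3.39 ± 0.70 in PP (each with its SE) are a description. All 3 were past the threshold in the fit of 18 libraries, but not with only the libraries compared in PP (-3.37, adjusted p = 0.0970 by edgeR). Against the HEL pos pools alone the changes were -3.21, -3.18 and -3.48, and those of Spleen and mLN missed the threshold (adjusted p = 0.0587 and 0.125). Without the PP BCL2 HEL pos library 922 the PP change was -6.19, which shows how few counts set it.

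The maintenance enzyme itself did not follow its partner. Dnmt1 stood at 84.97, 97.3 and 87.1 CPM in Spleen BCL2 HEL pos cells, against 76.5, 68.7 and 72.3 CPM in Spleen HEL pos cells. Its log2 difference was 0.32 in Spleen (95% interval -0.03 to 0.68), 0.09 in mLN (-0.27 to 0.45) and 0.24 in PP (-0.13 to 0.60), so a fall of the size seen for Uhrf1 lay outside the interval in every tissue. Dnmt3b, the second enzyme of new methylation, differed by 0.01 in Spleen, -0.43 in mLN and 0.24 in PP, each with an SE of 0.34 to 0.35. Tet2 differed by 0.01, 0.02 and -0.21 and Tet3 by 0.36, 0.21 and -0.25 in Spleen, mLN and PP, and none of these passed the test. Against the HEL pos pools alone Dnmt1, Dnmt3b, Tet2 and Tet3 were not called either, with the Tet2 change of -0.37 in PP and the Tet3 change of 0.36 in Spleen as the extremes.

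**Figure D2:**
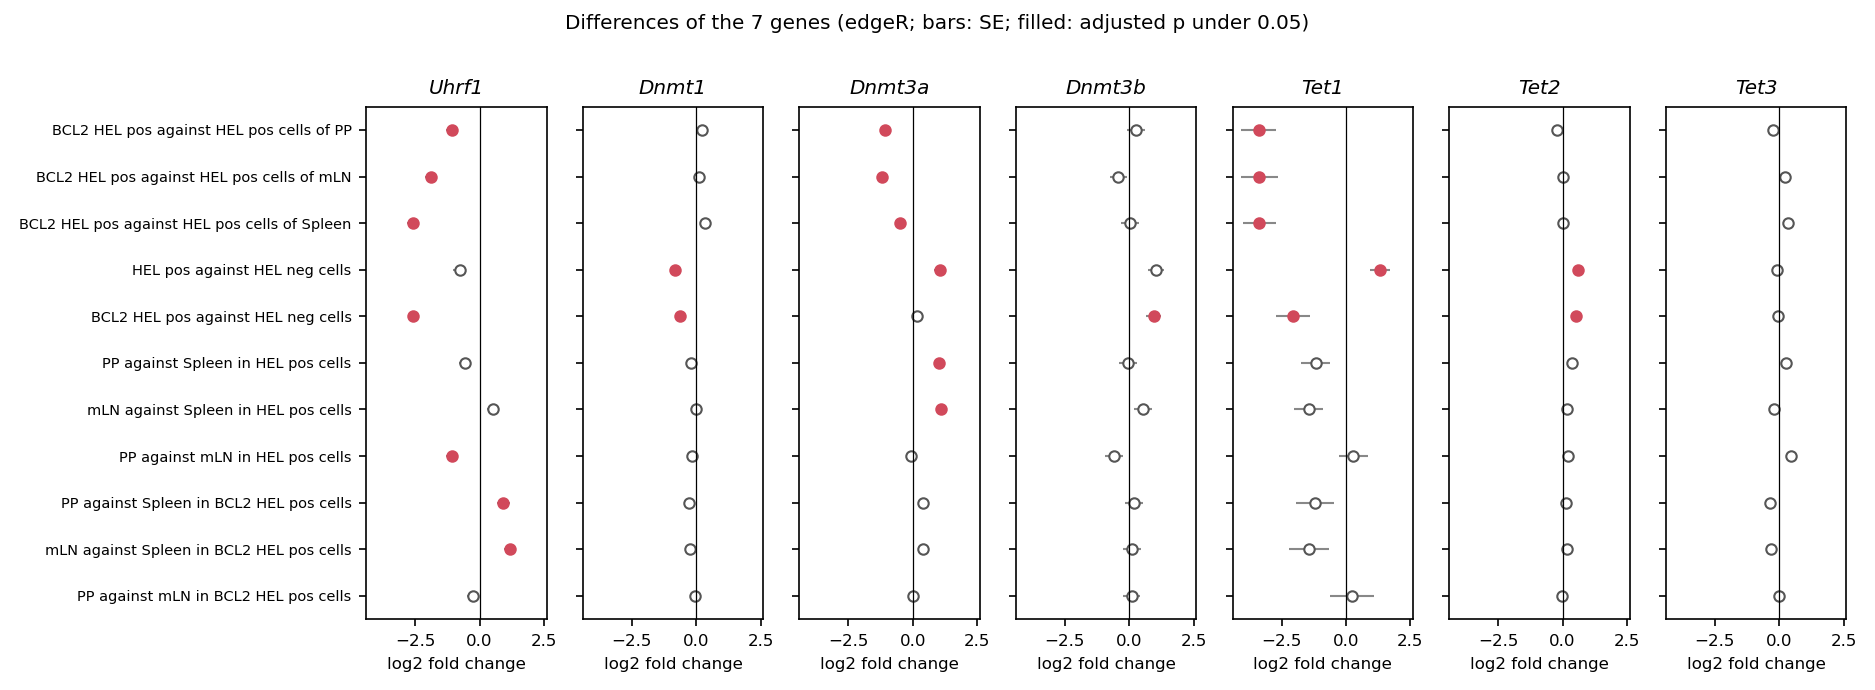
Log2 fold change (x axis) with its SE for each of the 7 genes in 11 comparisons (rows), with filled points at an adjusted p under 0.05 by edgeR. Uhrf1, Dnmt3a and Tet1 are filled left of 0 in all 3 comparisons of BCL2 HEL pos with HEL pos cells, and Dnmt1 is filled only against HEL neg cells (-0.62 in BCL2 HEL pos and -0.83 in HEL pos cells).

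Genes that work with methylation were compared in the same fit. Of 16 tested partners and readers of methylation, 3 were lower and 1 higher in Spleen BCL2 HEL pos cells, 3 lower and 1 higher in mLN, and 1 lower in PP, with medians of 0.08, 0.23 and -0.10 against 0.00 to -0.01 over all genes. Hells, a remodelling enzyme that opens nucleosomes for maintenance methylation, averaged 5.68 ± 0.699 CPM in Spleen BCL2 HEL pos cells and 12.2 ± 2.64 CPM in Spleen HEL pos cells (SD, n = 3 each), a log2 change of -1.09 (adjusted p = 0.0219). In mLN it averaged 6.54 ± 0.820 CPM in BCL2 HEL pos cells and 14.8 ± 1.87 CPM in HEL pos cells (SD, n = 3 each), a change of -1.16 (adjusted p = 0.0113). Cdca7, which activates HELLS, changed by -0.62 in Spleen (adjusted p = 0.0358) and -1.01 in mLN (adjusted p = 0.000975). Mbd3, a subunit of the NuRD repressor, was lower in Spleen, mLN and PP (-0.98, -1.08 and -0.78, with adjusted p = 0.00446, 0.00122 and 0.0164). The gene called higher in mLN was Zbtb4, a repressor that binds methylated DNA (1.02, adjusted p = 0.0108). Dnmt3l and Dppa3 did not pass the filter on low counts.

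The methyl donor list holds 8 genes, all tested, of which 2 were lower in each tissue, with medians of 0.12 in Spleen, -0.21 in mLN and -0.04 in PP. Both were the serine hydroxymethyltransferases, which pass the carbon of serine to folate. Shmt1 changed by -1.40 in Spleen, -1.55 in mLN and -1.06 in PP (adjusted p = 0.00118, 0.000143 and 0.00524 by edgeR), and Shmt2 by -0.91, -0.81 and -0.60 (adjusted p = 0.000128, 0.000298 and 0.00459). Of 11 tested genes of demethylation and base excision, 1 was higher in Spleen, 2 in mLN and 1 in PP, and 0 were lower by edgeR, with medians of 0.13, 0.48 and 0.14. They were Gadd45g in Spleen (1.05, adjusted p = 0.00244), Cxxc5 and Gadd45b in mLN (0.91 and 0.67, adjusted p = 0.00340 and 0.00788) and Idh1 in PP (0.63, adjusted p = 0.0471). GADD45 proteins are stress-induced and have been tied to active demethylation, CXXC5 binds unmethylated CpG, and IDH1 makes the 2-oxoglutarate that TET enzymes use.

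**Figure D3:**
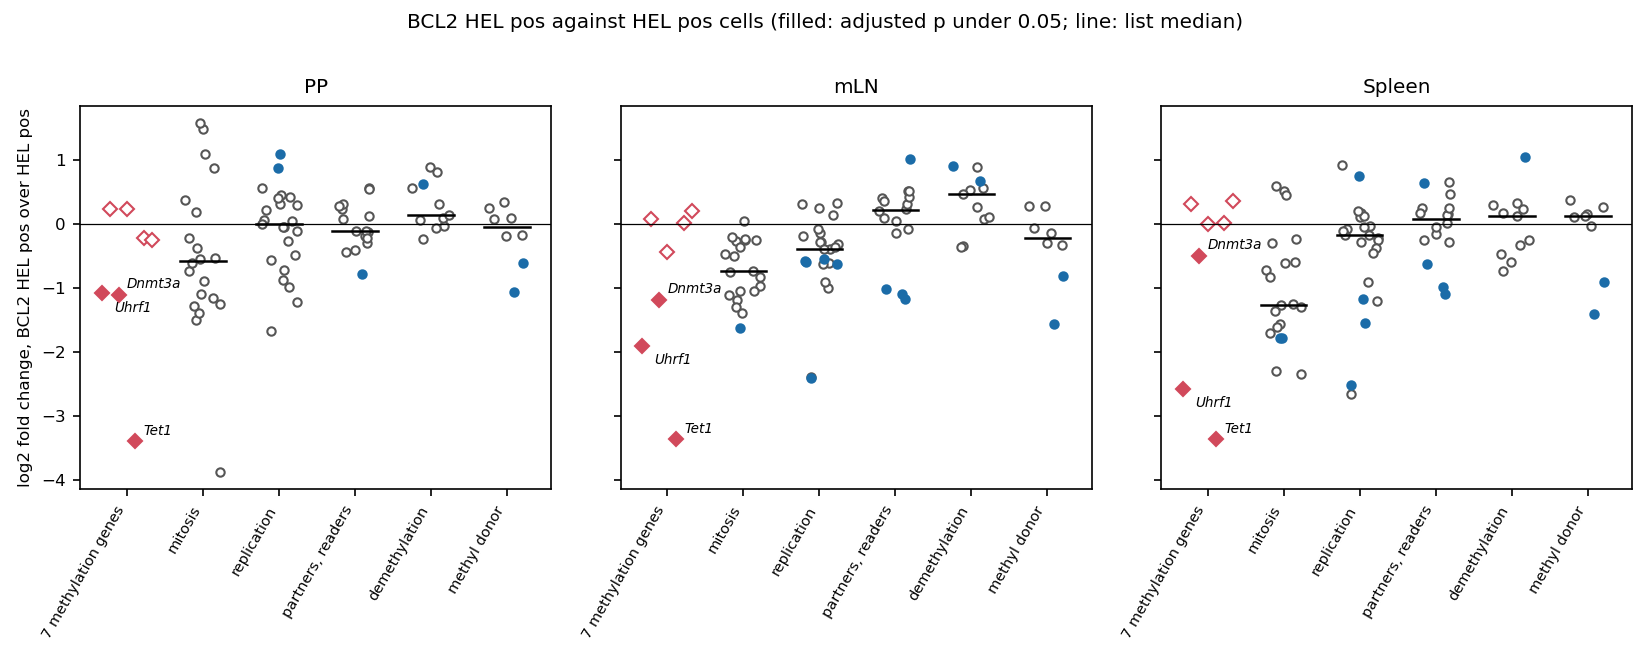
Log2 fold change of BCL2 HEL pos over HEL pos cells (y axis) in PP, mLN and Spleen for the 7 methylation genes (diamonds) and for 5 gene lists (circles, line at the list median), with filled symbols at an adjusted p under 0.05. Uhrf1, Dnmt3a and Tet1 are filled below 0 in each panel, and the mitosis list has medians of -0.57, -0.74 and -1.26 with 0, 1 and 2 of 20 genes filled.

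The mitosis genes had medians below 0 in BCL2 HEL pos cells, though few of them were called. Mki67, a protein of dividing cells, averaged 1.15 ± 1.03 CPM in Spleen BCL2 HEL pos cells and 5.66 ± 2.23 CPM in Spleen HEL pos cells (SD, n = 3 each), and its change of -2.29 ± 0.88 was not called (adjusted p = 0.105). In mLN and PP the Mki67 changes were -1.29 ± 0.85 and -1.49 ± 0.88, also uncalled. Top2a, the topoisomerase of mitotic chromosomes, was lower in Spleen (-1.77, adjusted p = 0.0211) and mLN (-1.61, adjusted p = 0.0283) by edgeR. Of 20 mitosis genes, 2 were lower in Spleen, 1 in mLN and 0 in PP by edgeR, with medians of -1.26, -0.74 and -0.57. Of all genes tested 4.82%, 5.9% and 4.74% were called lower there, and 9.37%, 11.7% and 10.1% in either direction. Of 23 replication genes, 3 were lower and 1 higher in Spleen, 5 lower in mLN, and 2 higher in PP, with medians of -0.17, -0.38 and 0.00. Cdc6, which loads the replication helicase, changed by -2.52 in Spleen and -2.40 in mLN (adjusted p = 0.0392 and 0.0348), while Cdt1, its partner in loading, changed by 0.75 in Spleen and 0.88 in PP (adjusted p = 0.00200 and 0.000964). Rrm2 and Tyms, which make DNA precursors, changed by -1.54 and -1.16 in Spleen (adjusted p = 0.0161 and 0.0412), the helicase subunits Mcm3, Mcm5 and Mcm6 by -0.62, -0.57 and -0.54 in mLN (adjusted p = 0.00296, 0.00623 and 0.0119), and the primase subunit Prim1 by 1.10 in PP (adjusted p = 0.0275). Pcna, the sliding clamp to which UHRF1 and DNMT1 are tied at the fork, differed by -0.04, -0.38 and -0.04 in Spleen, mLN and PP and was not called in any. With the mean level of the mitosis genes as a covariate in the fit, the Uhrf1 calls in all 3 tissues held (-2.15 in Spleen, -1.55 in mLN and -0.90 in PP), as did the Dnmt3a calls in mLN and PP (-1.14 and -1.08), whereas the Dnmt3a change in Spleen was -0.45 and its call was lost (adjusted p = 0.212). The Tet1 changes were -3.60, -3.55 and -3.47 in that fit. In such bulk libraries fewer cells of a type and less RNA per cell cannot be told apart.

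In HEL pos cells Dnmt3a was the gene called against Spleen, with higher levels at both gut sites. It was at 99.8, 67.0 and 87.6 CPM in PP and 91.0, 96.3 and 87.0 CPM in mLN, against 51.0, 36.8 and 41.1 CPM in Spleen, in the HEL pos libraries 392, 399 and Pool. No PP or mLN library came down to the Spleen range, though the share of all genes that separate so was not counted. The log2 fold change was 1.02 ± 0.15 for PP against Spleen (adjusted p = 9.47e-05) and 1.10 ± 0.15 for mLN against Spleen (adjusted p = 1.36e-05) by edgeR, and both calls held without any 1 library. Dnmt3a was the 1 of 7 genes called in each of these comparisons, where 15.4% and 24.5% of all genes were called. Between PP and mLN it differed by -0.08 ± 0.15. Summed markers of other cells ran beside this difference, though not every gene of a sum did. Summed plasma cell markers (7 genes) were 625 to 629 CPM in PP and 850 to 922 CPM in mLN, against 385 to 409 CPM in Spleen HEL pos cells. Sdc1, Xbp1, Irf4, Derl3 and Slamf7 averaged higher at both gut sites than in Spleen. Prdm1 averaged 1.88, 3.07 and 2.61 CPM and Tnfrsf17 0.169, 0.0419 and 0.296 CPM in PP, mLN and Spleen. Summed B cell markers were 24460 to 31266 CPM in PP and 25254 to 25475 CPM in mLN, against 38206 to 39807 CPM in Spleen. Summed myeloid markers (7 genes) were 9.12 to 25.8 CPM in PP and 11.6 to 25.5 CPM in mLN, against 67.3 to 201 CPM in Spleen. Lyz2, Csf1r, S100a8, S100a9 and Ngp averaged lower at both gut sites. Cd68 averaged 5.45, 10.5 and 5.61 CPM and Itgam 2.17, 3.98 and 3.52 CPM in PP, mLN and Spleen. Of these markers the myeloid gene Ngp alone was at 0 throughout a group, in PP, and their part in the Dnmt3a difference was not tested.

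Uhrf1 in HEL pos cells was lower in PP than in mLN, at 40.1, 21.9 and 47.7 CPM in PP against 89.9, 76.6 and 72.1 CPM in mLN. The change was -1.08 ± 0.22 (adjusted p = 0.00379 by edgeR), the 1 call among the 7 genes where 8.86% of all genes were called. Spleen, at 64.9, 43.9 and 58.5 CPM, lay between them, and neither PP (-0.57 ± 0.22, adjusted p = 0.0808) nor mLN (0.52 ± 0.21, adjusted p = 0.0824) was called against it in that fit. PP was called without a low-count filter (adjusted p = 0.0360) and mLN with only the libraries compared (adjusted p = 0.0378). With the library number as a block both were called (-0.59 and 0.54, adjusted p = 0.0277 and 0.0282 by edgeR). Replication genes were also lower in PP than in mLN, with 7 of 23 called lower and 0 higher, against 8.86% of all genes called in either direction, at a median of -0.53, against -0.01 over all genes. They include the helicase subunits Mcm5, Mcm6, Mcm7 and Mcm2 at -0.78, -0.75, -0.89 and -0.77 (adjusted p = 0.00107, 0.00185, 0.00256 and 0.0104). For mLN against Spleen 7 of the 23 were called higher, against 24.5% of all genes called in either direction, at a median of 0.43, with Mcm5 at 0.81, Mcm6 at 0.84 and Pcna at 1.02. Epithelial markers moved with PP, at 254 to 1078 CPM in PP HEL pos cells against 39.9 to 48.2 CPM in mLN HEL pos cells, and library 399, the lowest of these for Uhrf1 and Dnmt1, had the highest sum. All 13 epithelial markers had counts in PP HEL pos cells, while Apoa1, Krt8 and Krt20 were at 0 in mLN HEL pos cells. The part of those markers in the PP values was not tested. Tet1 was at 4.05 to 5.69 CPM in PP and 3.77 to 4.93 CPM in mLN against 10.6 to 12.7 CPM in Spleen, without a call (-1.17, adjusted p = 0.177, and -1.45, adjusted p = 0.0674), though the mLN difference was called by DESeq2 (adjusted p = 0.0131).

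Other genes around methylation differed between tissues as well. Shmt1 was higher in PP and mLN than in Spleen HEL pos cells (1.68 and 2.27), and Shmt2 by 0.77 and 1.03, with adjusted p = 5.71e-05, 5.15e-07, 0.000286 and 4.25e-06 by edgeR. Gadd45g was higher in PP and mLN (1.72 and 1.04, adjusted p = 1.30e-05 and 0.000754), while Gadd45b was lower (-0.75 and -1.51, adjusted p = 0.00201 and 6.26e-07). Mbd3 was higher in PP and mLN than in Spleen (0.64 and 1.29, adjusted p = 0.0340 and 6.18e-05). Of the 11 genes of demethylation and base excision 2 were higher and 4 lower in both comparisons.

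Within BCL2 HEL pos cells the gene called between tissues was Uhrf1, with Spleen lowest. It stood at 18.6, 18.5 and 16.2 CPM in PP and 20.0, 25.03 and 18.6 CPM in mLN, against 10.5, 7.87 and 9.54 CPM in Spleen, in the libraries 922, 926 and 950. Neither gut site overlapped with Spleen, and how many of all genes separate in this way was not counted. The change was 0.92 ± 0.24 for PP against Spleen (adjusted p = 0.0186) and 1.19 ± 0.24 for mLN against Spleen (adjusted p = 0.00242) by edgeR, each the 1 call among the 7 genes where 7.34% and 10% of all genes were called. The PP call was lost without the Spleen library 926, the PP library 926 or the Spleen library 950, with adjusted p up to 0.106. Between PP and mLN 0 of the 7 genes were called by edgeR or DESeq2 and 0 had an unadjusted p under 0.05, where 1.16% of all genes were called. Dnmt3a averaged 40.5 ± 3.16 CPM in PP and 40.3 ± 2.56 CPM in mLN, against 30.3 ± 2.52 CPM in Spleen (SD, n = 3 each), and its differences of 0.41 and 0.41 were not called (adjusted p = 0.111 and 0.0994).

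The mean level of Uhrf1 in PP was thus above that in Spleen in BCL2 HEL pos cells and below it in HEL pos cells. In HEL pos cells the difference was called only under alternatives. The interaction, which tests that difference itself, was 1.49 ± 0.32 on the log2 scale, with an unadjusted p of 0.000143 and an adjusted p of 0.0910 by edgeR, so it was not called. Across all 11419 genes 0.00876% were called in that interaction. DESeq2 called it (adjusted p = 0.00575), and so did edgeR without a low-count filter (adjusted p = 0.000247) and with the library number as a block (adjusted p = 0.0172). In the interactions of BCL2 with PP against Spleen, mLN against Spleen and PP against mLN, the filtered edgeR fit without a block called 0 of the 7 genes. In that fit 3, 2 and 2 of them had an unadjusted p under 0.05, and DESeq2 called 1, 0 and 0. The mLN against Spleen interaction called 0.385% of all genes and PP against mLN 0.00876%. For Dnmt3a, whose PP and mLN differences from Spleen were 0.41 and 0.41 in BCL2 HEL pos cells and 1.02 and 1.10 in HEL pos cells, the interactions were -0.61 (adjusted p = 0.380) and -0.69 (adjusted p = 0.208).

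HEL neg cells, measured as 1 pool per tissue, had the highest Dnmt1. It was at 69.4 to 77.7 CPM in PP, 70.8 to 80.3 CPM in mLN and 84.97 to 97.3 CPM in Spleen BCL2 HEL pos cells, and at 41.4 to 81.3, 62.1 to 77.4 and 68.7 to 76.5 CPM in HEL pos cells, against 143, 108 and 116 CPM in the HEL neg pools of those tissues. Every BCL2 HEL pos and HEL pos library was below every HEL neg pool, a separation whose share over all genes was not counted. With tissue as a covariate, Dnmt1 differed by -0.62 ± 0.11 in BCL2 HEL pos cells (adjusted p = 0.00157) and -0.83 ± 0.17 in HEL pos cells (adjusted p = 0.00724), both against HEL neg cells by edgeR. Without the PP HEL neg pool the HEL pos difference was -0.62 and was not called (adjusted p = 0.127). With only the 6 pooled libraries it was -0.86 and was not called either (adjusted p = 0.0583 by edgeR).

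Uhrf1 averaged 17.8 CPM in PP, 21.2 CPM in mLN and 9.31 CPM in Spleen BCL2 HEL pos cells, and 36.6, 79.5 and 55.8 CPM in HEL pos cells, against 118, 77.7 and 76.9 CPM in the HEL neg pools. As a share of the pool of the same tissue that was 15.0%, 27.3% and 12.1% in BCL2 HEL pos cells and 31.0%, 102% and 72.6% in HEL pos cells. BCL2 HEL pos cells differed from HEL neg cells by -2.58 ± 0.17 (adjusted p = 4.43e-08), number 6 of 10987 genes by p, and HEL pos cells by -0.77 ± 0.26 (adjusted p = 0.0748), which was not called by edgeR but was by DESeq2 (adjusted p = 0.0288) and without a low-count filter (adjusted p = 0.000105). The HEL pos difference was -0.21 without the PP HEL neg pool (adjusted p = 0.728) and -1.12 without the mLN HEL neg pool (adjusted p = 0.0532). In mLN 1 of 3 HEL pos libraries was above the pool, and in PP and Spleen 0 of 3 were.

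For BCL2 HEL pos against HEL neg cells 5 of the 7 genes were called, where 14.7% of all genes were, and 4 of 7 for the HEL pos comparison, where 8.68% were. Both comparisons share the HEL neg pools, and Tet1, given below as a description, is in both counts. The members' medians were -0.05 and 0.60, against 0.01 and 0.02 over all genes. Y-linked sums were 0 to 0.844 CPM in the numbered HEL pos libraries, against 106 to 153 CPM in the HEL neg pools. With only the 6 pooled libraries, whose HEL pos pools had 136 to 146 CPM, 0 of the 7 genes were called. The changes there were -0.86 for Dnmt1, 1.09 for Dnmt3a, 1.31 for Tet1 and 0.77 for Tet2. Their adjusted p were 0.0583, 0.113, 0.282 and 0.113 by edgeR. Why these calls were lost was not tested. Means and SDs over 9 or 3 libraries, here and below, span the 3 tissues, in which the library numbers recur. Dnmt3a averaged 37.0 ± 5.61 CPM in BCL2 HEL pos cells and 73.1 ± 24.6 CPM in HEL pos cells (SD, n = 9 each), against 32.6 ± 3.47 CPM in HEL neg cells (SD, n = 3). It was called in HEL pos cells (1.05 ± 0.22, adjusted p = 0.0104) and not in BCL2 HEL pos cells (0.16 ± 0.14, adjusted p = 0.524), and the HEL pos call was lost without the mLN or the PP HEL neg pool (adjusted p up to 0.130). Dnmt3b averaged 10.6 ± 2.91 CPM in BCL2 HEL pos cells and 11.2 ± 3.56 CPM in HEL pos cells (SD, n = 9 each), against 5.49 ± 1.02 CPM in HEL neg cells (SD, n = 3). Its change was 0.94 ± 0.29 (adjusted p = 0.0374) in BCL2 HEL pos cells and 1.02 ± 0.31 (adjusted p = 0.0551) in HEL pos cells, and only the BCL2 HEL pos change was called.

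Of the erasers, Tet2 was called higher than in HEL neg cells and Tet3 was not called. Tet2, the TET enzyme most studied in blood cells, averaged 38.0 ± 5.76 CPM in BCL2 HEL pos cells and 39.6 ± 6.15 CPM in HEL pos cells (SD, n = 9 each), against 26.2 ± 3.77 CPM in HEL neg cells (SD, n = 3). It was higher by 0.53 ± 0.16 (adjusted p = 0.0350) in BCL2 HEL pos cells and 0.60 ± 0.17 (adjusted p = 0.0420) in HEL pos cells. Tet1 was at 2.51 CPM in the PP, 0.641 CPM in the mLN and 6.47 CPM in the Spleen HEL neg pool. Its fitted changes were -2.06 in BCL2 HEL pos cells and 1.32 in HEL pos cells (adjusted p = 0.0433 and 0.0421 by edgeR). They are a description, because Tet1 was close to the floor in BCL2 HEL pos cells and in the mLN pool. Tet3 was highest in the PP HEL neg pool at 70.1 CPM, against 36.7 and 31.1 CPM in the mLN and Spleen pools, and was called in neither comparison (-0.05 and -0.10). The Tet1, Tet2 and Dnmt3b calls against HEL neg cells were each lost in 7 to 9 of 12 refits without 1 library, with adjusted p up to 0.276. In BCL2 HEL pos cells, without the mLN or PP HEL neg pool, Tet2 was not called, and without any 1 HEL neg pool neither Tet1 nor Dnmt3b was.

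Proliferation and germinal centre genes moved with these differences. Mki67 was at 0 to 2.78 CPM in BCL2 HEL pos cells and 1.80 to 7.86 CPM in HEL pos cells, against 24.2 to 45.3 CPM in HEL neg cells. Of 20 mitosis genes, 20 were lower in BCL2 HEL pos cells and 19 in HEL pos cells than in HEL neg cells, with medians of -2.92 and -2.25, and of 23 replication genes 18 and 15 were lower, with medians of -1.02 and -0.77. Summed germinal centre markers (7 genes in the table) were 93.7 to 164 CPM in BCL2 HEL pos cells and 67.8 to 159 CPM in HEL pos cells, against 333 to 720 CPM in HEL neg cells. With the mitosis score as a covariate 0 of the 7 genes were called against HEL neg cells in either comparison by edgeR. All 3 HEL neg pools had higher mitosis scores than every other library, so the score and the cell kind cannot be told apart there. Among the partners and readers, Mbd4 and Zbtb38 were lower in BCL2 HEL pos cells (-0.90 and -0.91) and in HEL pos cells (-0.98 and -1.33), and Hells and Cdca7 were lower in BCL2 HEL pos cells (-1.49 and -0.91), all against HEL neg cells.

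The relation of Uhrf1 and Dnmt1 to proliferation was examined on log2 CPM. Within a tissue the 7 libraries were tested by exact two-sided permutation, in a family of 12 relations. The libraries of 1 cell kind lay together. These p-values thus cannot tell a relation with proliferation from a difference between the cell kinds. Mki67 was at or under the floor of 3 counts in the BCL2 HEL pos libraries Spleen 926, mLN 950 and PP 950. Uhrf1 rose with Mki67 in PP (r = 0.88, exact p = 0.00556, adjusted p = 0.0167, and rho = 0.93, adjusted p = 0.0270) and Spleen (r = 0.90, exact p = 0.000794, adjusted p = 0.00952, and rho = 0.96, adjusted p = 0.0167). In mLN the relation with Mki67 had r = 0.72 and rho = 0.86 and did not pass (adjusted permutation p = 0.0505 and 0.0714). With the mitosis score r was 0.91 in PP, 0.64 in mLN and 0.80 in Spleen (adjusted permutation p = 0.0167, 0.0952 and 0.00952), and rho was 0.82, 0.68 and 0.96 (adjusted permutation p = 0.0819, 0.219 and 0.0167), so in PP the rank relation did not pass. Without the 2 libraries farthest from the median of the x axis, r for Uhrf1 was 0.68 in PP, 0.80 in mLN and 0.89 in Spleen with Mki67, and 0.79, 0.72 and 0.90 with the mitosis score. The 5 libraries left are too few for a single relation to pass the adjustment, so no p is given for them. Dnmt1 passed in none of its 6 relations, with r from 0.11 to 0.78 and adjusted permutation p from 0.237 to 0.818.

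**Figure D4:**
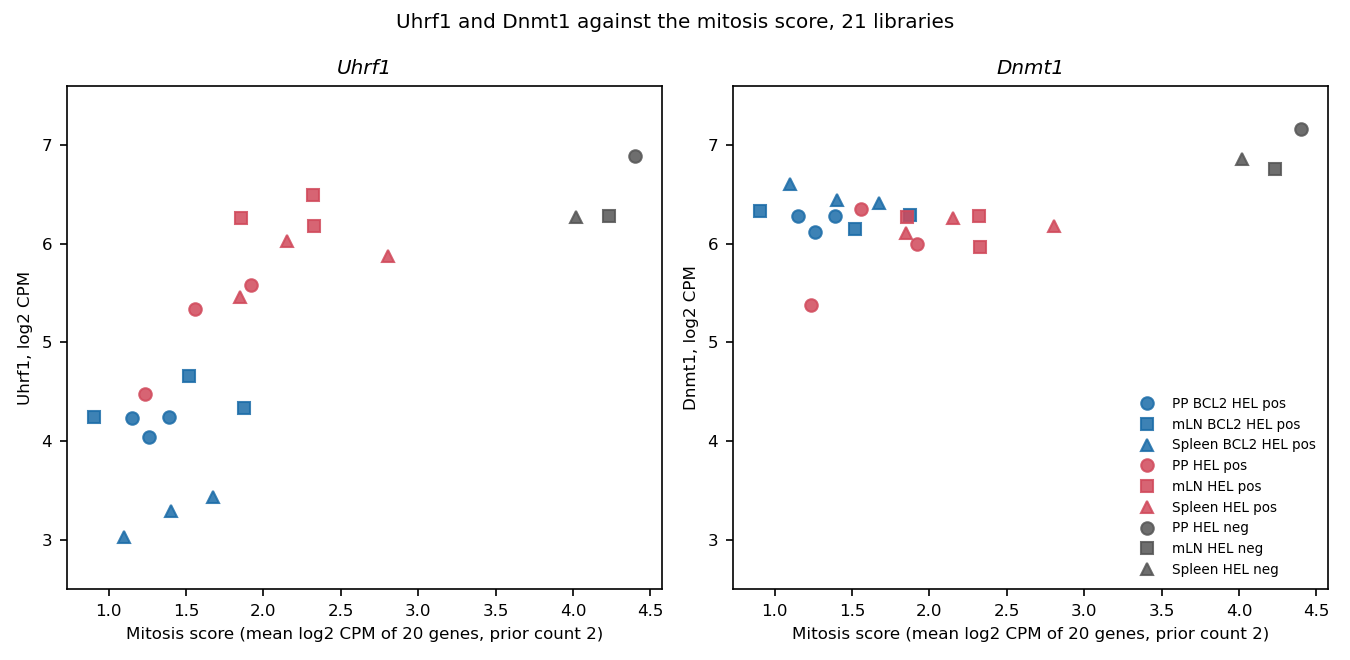
Log2 CPM of Uhrf1 (left) and Dnmt1 (right) on the y axis against the mitosis score (mean log2 CPM of 20 mitosis genes) on the x axis, 1 point per library, with colour for the cell kind and shape for the tissue. Within a tissue r runs from 0.64 to 0.91 for Uhrf1, and for Dnmt1 the 3 HEL neg pools (108 to 143 CPM) stand above all other libraries (41.4 to 97.3 CPM).

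Within each cell kind Uhrf1 was also set against the replication genes, given here as a description without p because libraries share numbers and tissues. Over the 9 libraries of HEL pos cells Uhrf1 had r = 0.92 with the replication score (mean log2 CPM of 23 genes), 0.74 with the mitosis score and 0.49 with Mki67. Over the 9 BCL2 HEL pos libraries r was 0.73, 0.12 and 0.25 for those measures. Without the 2 libraries farthest from the median of the x axis r with replication was 0.93 in HEL pos and 0.72 in BCL2 HEL pos cells, where r with Mki67 became 0.76. Mki67 rests on 0 to 23 counts per library in BCL2 HEL pos cells, so its r there is limited by depth. Over the 18 deviations from group means r was 0.59 with replication, 0.58 with mitosis and 0.51 with Mki67. Dnmt1 had r = 0.52 with the replication score in HEL pos cells, which became -0.07 without those 2 libraries, and -0.53 in BCL2 HEL pos cells.

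The genes whose log2 CPM was most like each of the 7 over the 21 libraries, among 8542 genes averaging a log2 CPM of 3 or more, are given by Pearson r. For Uhrf1 they included Hmgn3 (0.91), Tfdp1 (0.90), Ppp2r4 (0.86) and Acot7 (0.86). For Dnmt1 they were Efnb1 (0.89), Tonsl (0.86), Ehd3 (0.84), Slc41a2 (0.83) and Phf15 (0.81). Dnmt3a was most like Pih1d1 (0.93), Hps4 (0.92), Fam162a (0.92), Bcl2l1 (0.90) and Rilpl2 (0.90), and Dnmt3b like Slc10a3 (0.78), Brp44, Trub1, Txnrd3 and Poldip2. Tet1 was most like Cfp (0.90), Dusp10, Lynx1, Nedd4 and Vwa5a, Tet2 like Sbno1 (0.82), Mbtd1, Ogt, Cdyl2 and Peo1, and Tet3 like Mnt (0.80), Adrbk1, Mapk8ip3, Rbm33 and Bptf. Among the 7 themselves the highest r over the 21 libraries was 0.59, between Uhrf1 and Tet1, and the lowest was -0.63, between Dnmt1 and Tet2. Uhrf1 and Dnmt1 had r = 0.21 over the 21 libraries and 0.61 over the 18 deviations from group means. These values share libraries, depth and cell kinds and carry no p.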

How the data were processed

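RNA was measured in 21 libraries of sorted mouse B cells by single-end sequencing, per the labels' protocols. These name 2 library kits, TruSeq and Nextera XT, so strand was not relied on. The deposited values are whole-number counts for each gene. The submitters' processing notes list STAR, HTSeq, DESeq2 and the build mm10, with roles and versions not given in the sources used. Each column was matched to a library by its name. Gene coordinates and exon lengths came from GENCODE M21, which held 20929 of the 23337 symbols, and promoter windows from RefSeq. Antisense genes cover 0.80% of the exon bases of Dnmt3a and 0.25% of those of Tet2.

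After filterByExpr and TMM scaling, edgeR 4.0.16 (R 4.3.3) gave two-sided quasi-likelihood tests, adjusted by Benjamini-Hochberg over all genes tested, and genes with an adjusted p under 0.05 were called. The HEL pos and BCL2 HEL pos groups were fitted together (18 libraries and 11419 genes, with 12 residual degrees of freedom and 0.207 as the biological coefficient of variation). Each was set against HEL neg cells in 12 libraries, adjusting for tissue (11406 and 10987 genes, 8 residual degrees of freedom). Log2 CPM used a prior count of 2. Floors and intervals on counts cover counting error only. All 18 pairs of libraries within a group differed beyond sampling noise (chi-square per degree of freedom 8.56 to 55.3), and the tests were checked on simulated counts.

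The 7 genes, the gene lists, the markers and the rule for named genes were chosen with earlier results of these data known. Named genes were the 7, Mki67, Top2a, Pcna and Mcm5, at most 4 called genes of each list per comparison by smallest p, and the 5 genes most like each of the 7, and a few that the rule names are not reported here. Alternatives tried were the full DESeq2 1.42.0 test, edgeR on DESeq2 size factors, omission of the low-count filter, the mitosis score as a covariate, only the libraries compared, the library number as a block, fits without the pooled HEL pos libraries or without 2 PP HEL pos libraries with high epithelial transcripts, only the 6 pooled libraries, and each library left out. The fit with only the pooled HEL pos libraries was added after the data were seen.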

Additional observations from a re-analysis of the deposited data

Results flagged for a closer look

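The mean difference of Uhrf1 between PP and Spleen had opposite signs in the cell kinds, with an interaction of 1.49 on the log2 scale. In the main fit neither the HEL pos difference (adjusted p = 0.0808 by edgeR) nor the interaction was called. Same-number differences of PP minus Spleen in log2 CPM were 0.81, 1.21 and 0.74 in BCL2 HEL pos libraries 922, 926 and 950. They were -0.69, -0.99 and -0.30 in the HEL pos libraries 392, 399 and Pool. The item was picked, among genes and tissue comparisons, because these differences differed between the cell kinds. Their opposite signs are thus part of the selection and give no separate support. The interaction term had an adjusted p of 0.0910 by edgeR and 0.00575 by DESeq2, with a range of 0.000247 to 0.337 over the alternatives tried. Epithelial markers in PP were 42.1 to 187 CPM in BCL2 HEL pos cells and 254 to 1078 CPM in HEL pos cells, and their part in the difference was not tested.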

How the results depend on the processing

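Of 98 values (7 genes in 14 comparisons), 23 were called and 8 more were called only under an alternative. The 23 include the Tet1 calls given above as a description. Of all genes tested, 0.00876% to 24.5% were called, depending on the comparison. DESeq2, and its size factors within edgeR, kept all 23 calls with their direction. No call changed sign when 1 library was left out. The number of the 7 genes called moved for some comparisons. For mLN against Spleen in HEL pos cells it was 1, and 2 with DESeq2, without a filter, with the mitosis score as a covariate or with the library number as a block, and 3 with only the libraries compared or when PP HEL pos libraries 399 and Pool were left out. For PP against Spleen in HEL pos cells it was 1, and 2 without a filter or with the block. For PP against mLN in HEL pos cells it was 1, and 2 with DESeq2. For BCL2 HEL pos against HEL pos cells it was 3 in each tissue, Tet1 included. In PP it was 1 with only the libraries compared. In Spleen it was 2 without a filter, with the mitosis score, with only the libraries compared or without the HEL pos pools, and 1 with only those pools, where it was 2 in mLN. The BCL2 interaction for PP against Spleen had 0 called, and 1 (Uhrf1) with DESeq2, without a filter or with the block (adjusted p = 0.00575, 0.000247 and 0.0172). Against HEL neg cells 5 were called in BCL2 HEL pos and 4 in HEL pos cells, and 0 and 0 with the mitosis score, where Tet2 in BCL2 HEL pos cells was at -1.02 and Uhrf1 in HEL pos cells at 1.24, both reversed, and 0 in HEL pos cells with only the 6 pools. Leaving out 1 library gave 2 to 5 and 0 to 5 called against HEL neg cells, 1 to 2 for PP against Spleen and 1 to 3 for mLN against Spleen in HEL pos cells, and 0 to 2 for PP against Spleen in BCL2 HEL pos cells. The labels do not say what a library number marks. The rule set for pairing asked for r over 0.1 in every same-numbered pair. It was reached in 6 of 9 BCL2 HEL pos and 7 of 9 HEL pos pairs, against 0 of 18 and 1 of 18 pairs of different numbers. All same-numbered pairs had a positive r, with the lowest at 0.0528 in BCL2 HEL pos and 0.0204 in HEL pos cells. By that rule the numbers were not taken as pairs, so the main fits treat libraries as separate. As a hint from the data, 33 of 36 searches found the own number best. With the block Uhrf1 in HEL pos cells was called for PP (-0.59, adjusted p = 0.0277) and mLN (0.54, adjusted p = 0.0282) against Spleen, and beside the interaction no other call changed. Tet1 could not be fitted in BCL2 HEL pos tissue comparisons with only the libraries compared, where it was filtered out. For Uhrf1 with Mki67 in mLN r was 0.721 and called with a prior count of 0.5 and also 0.721 with DESeq2 size factors. Without the 2 farthest libraries Uhrf1 had r = 0.679 and 0.788 in PP and 0.894 and 0.9 in Spleen with Mki67 and the mitosis score, at 5 libraries, too few for a single relation to pass, while Dnmt1 reversed to -0.361 in PP and -0.734 in Spleen with Mki67 and to -0.269 in mLN and -0.828 in Spleen with the mitosis score. With the replication score Uhrf1 in PP had r = 0.851, uncalled. The cause of these changes was not tested. Tet1 in BCL2 HEL pos cells, at 0 to 14 counts per library, is limited by depth.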
